A study of Mus musculus with 4 samples.

Results

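The genes described are the apolipoprotein cluster of mouse chromosome 7, namely Apoe, Apoc1, Apoc4 and Apoc2. They were found by symbol in the feature lists, which hold 32227 genes, and all 4 were there, once each. They were followed across 4 single-cell libraries and across cell classes set by marker genes. They had been picked with earlier results of the same data in view: all stood higher in the Hevin libraries, and Apoe defined the cells in which they were highest.

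The cells came from the cortex of wild-type mice on postnatal day 15. In the Hevin group, adeno-associated virus injected into the cortex on postnatal day 0 or 1 made astrocytes overexpress Hevin, the secreted protein encoded by Sparcl1. In the mCherry group the virus carried a red fluorescent protein instead. Both viruses used the GfaABC1D promoter, which is active in astrocytes, and each group has 2 libraries. All cortices were handled with the transcription inhibitors actinomycin D (5 ug/mL) and triptolide (10 uM) and, from dissection on, the translation inhibitor anisomycin (27.1 ug/mL). Cells were then selected with CD11b beads, which bind microglia and other myeloid cells, and made into libraries with PIPseq, a droplet method that counts molecules by unique molecular identifiers (UMIs). How many animals went into each library is not on the labels, so p-values measure the spread between libraries, which may be technical.

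Apolipoproteins are the protein coats of lipoprotein particles. Apoe carries cholesterol and phospholipid between cells of the brain and is taken up through receptors of the LDL receptor family. It is made mainly by astrocytes, while homeostatic microglia express little of it and activated microglia and border macrophages express more. Apoc1 codes for a small apolipoprotein that hinders receptor uptake and lipid transfer, Apoc2 for the cofactor that lipoprotein lipase needs, and Apoc4 for a minor particle component whose role is less clear.

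On build mm10 the genes lie in a row on the minus strand, in the annotation of GENCODE vM21. Apoe spans chr7:19696109-19699188, Apoc1 chr7:19689481-19692660, Apoc4 chr7:19678083-19681479 and Apoc2 chr7:19671579-19677941. From the start of Apoe to the end of Apoc2 the row covers 27610 bases. The gaps differ: 3448 bases lie between Apoe and Apoc1, 8001 between Apoc1 and Apoc4, and 141 between Apoc4 and Apoc2. A read-through gene, Gm44805, covers Apoc4 and Apoc2 together (chr7:19671584-19681423). It has no entry in the feature lists, so its transcripts, if counted, cannot be told apart from those of Apoc4 and Apoc2. The bases before the start of Apoe, Apoc4 and Apoc2 (RefSeq, GRCm38.p6) are shown because these genes moved together although their gaps differ so much. They are 250 bases for Apoe (chr7:19699189-19699438) and Apoc4 (chr7:19681461-19681710), and for Apoc2 the whole gap to Apoc4 (chr7:19677942-19678082), 5′ to 3′ on the minus strand. Capitals mark the motifs found.
Apoe: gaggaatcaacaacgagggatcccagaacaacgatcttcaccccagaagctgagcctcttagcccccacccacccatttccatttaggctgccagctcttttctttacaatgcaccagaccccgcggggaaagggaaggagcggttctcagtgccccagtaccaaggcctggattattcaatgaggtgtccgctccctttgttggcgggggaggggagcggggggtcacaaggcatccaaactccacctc
Apoc4: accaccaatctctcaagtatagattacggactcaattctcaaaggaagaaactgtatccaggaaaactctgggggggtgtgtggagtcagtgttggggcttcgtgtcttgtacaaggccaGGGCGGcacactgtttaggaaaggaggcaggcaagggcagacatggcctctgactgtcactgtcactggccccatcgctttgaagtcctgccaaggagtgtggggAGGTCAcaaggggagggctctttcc
Apoc2: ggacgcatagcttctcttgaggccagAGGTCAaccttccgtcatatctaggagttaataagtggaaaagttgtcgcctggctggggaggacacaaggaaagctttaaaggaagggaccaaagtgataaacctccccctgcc
Both strands were searched for 5 motifs. The first was the TATA box, TATAAA. The second was the GC box, which reads GGGCGG. The third was a single nuclear receptor site, AGGTCA. The fourth, which overlaps it, was a direct repeat of that site with a spacer of 4 bases, the form bound by liver X receptors. The last was GAGGAAG, bound by the myeloid factor PU.1. AGGTCA began 25 bases before the RefSeq start of Apoc4 and 115 bases before that of Apoc2, and GGGCGG 130 bases before that of Apoc4. The RefSeq start of Apoc4 lies 19 bases inside the GENCODE gene given above, so the last 19 bases of its window belong to that gene model. None of the 5 motifs was found in the window of Apoe. Of 32536 mouse promoter windows of 250 bases, 14% held the single nuclear receptor site, 33% the GC box, 12.3% the TATA box, 10.7% the PU.1 motif and 0.0154% the direct repeat. In windows of 141 bases, the length shown for Apoc2, 8.06% held the single nuclear receptor site.

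The Hevin libraries held 55629684 and 52707417 UMIs in 19855 and 13077 barcodes, and the mCherry libraries 67832685 and 49781430 UMIs in 17877 and 10877 barcodes. The median depth of kept cells was 2329 and 3493.5 UMIs in the Hevin libraries, against 3350 and 4037 in the mCherry libraries. Pairs of libraries shared between 1 and 7 barcodes. Sex-linked transcripts differed between libraries. Hevin replicate 1 had Xist at 1.19 UMIs per 1000000 UMIs of the library (CPM), against 539 to 1210 CPM in the other 3 libraries. The Y-linked Uty had 42.8 and 1.08 CPM with Hevin and 22.9 and 0.846 CPM with mCherry, so it was high in replicate 1 of both groups. The fits of the members are also given without Hevin replicate 1. Sparcl1 itself, with 86.4 and 78.4 CPM for Hevin against 123 and 91.4 CPM for mCherry, does not check the labels, since these are not the transduced cells.

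Over all kept cells, every member was higher in the Hevin libraries. Apoe took 2.20% and 1.85% of all UMIs in the Hevin libraries, against 0.282% and 0.259% in the mCherry libraries. Apoc1 averaged 97.1 ± 14.4 CPM in the Hevin libraries and 10.6 ± 2.45 CPM in the mCherry libraries (SD, n = 2 each), a 9.15-fold difference. Apoc4 averaged 16.8 ± 0.669 CPM with Hevin and 0.389 ± 0.180 CPM with mCherry, a 43.1-fold difference. Apoc2 averaged 20.5 ± 1.69 CPM with Hevin and 1.48 ± 0.533 CPM with mCherry, a 13.8-fold difference. No value of one group overlapped the other. How many of all genes lay apart in this way was not counted, and the members had been chosen for standing higher with Hevin. In edgeR's quasi-likelihood fit over 19119 genes 4 of 4 members passed the threshold (adjusted p below 0.05), with log2 fold changes between 3.02 and 5.49, and between 2.88 and 5.44 without Hevin replicate 1. The share of all genes that passed was 11.1%, and nothing is read from the members' count, since this contrast chose them. In sums over a library, fewer cells of a type and less RNA per cell cannot be told apart.

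Counted cell by cell, Apoe formed a low and a high mode in the Hevin libraries. The mCherry libraries had a small second rise. Their bins fell to 0.600% and 0.562% of cells and then reached 1.13% and 1.17%. That rise lay near the median Apoe share of their border macrophages, gated as described below, at 1.38% and 1.39%. The median Apoe share of a cell was 1.90% and 0.939% of its UMIs in the Hevin libraries and 0.125% and 0.0959% in the mCherry libraries. The upper quartile stood at 3.50% and 3.34% in the Hevin libraries, against 0.238% and 0.209% in the mCherry libraries. The low end differed as well: the 1st percentile of cells had 0.172% and 0.0881% in the Hevin libraries and 0% in both mCherry libraries. At least the lowest-ranked 1% of mCherry cells thus had no Apoe UMI, whereas Hevin cells of that rank had some.

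**Figure D1:**
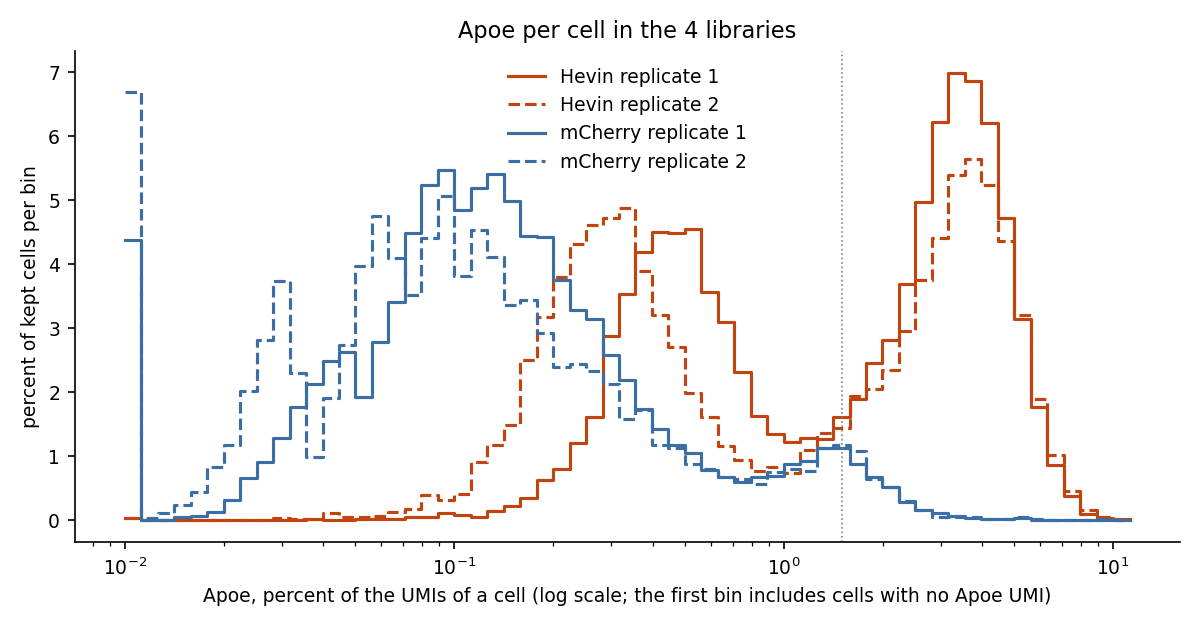
Distribution of Apoe per cell, as a percentage of the UMIs of the cell on a log axis, for the 2 Hevin libraries (orange) and the 2 mCherry libraries (blue), as a percentage of kept cells per bin; the dotted line marks 1.5%. The Hevin libraries have a low mode near 0.3 to 0.5% and a high mode near 3.5%. Most mCherry cells lie near 0.1%, with a small second rise near the dotted line.

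Cells were assigned to gates by marker sums that contain no apolipoprotein gene, save in the Apoe-high gate. That gate took cells with at least 1.5% of UMIs from Apoe, no Sall1, few microglial markers and few markers of other classes. It held 9224 and 4987 cells in the Hevin libraries and 48 and 25 cells in the mCherry libraries. Between 1.5% and 1.8% of Apoe, just inside the bound, lay 260 and 152 cells of the Hevin libraries and 4 and 3 of the mCherry libraries. Just outside, between 1.2% and 1.5%, lay 217 and 90 cells of the Hevin libraries and 14 and 6 of the mCherry libraries. The microglia gate held 5795 and 5512 cells in the Hevin libraries and 15066 and 9168 in the mCherry libraries, and all 8 microglial markers were detected there in every library. That gate left out cells with 10 or more UMIs of Ms4a7, Axl, Gpr65, Runx3 and Cyp4f18 per 10000 UMIs. These are markers of Apoe-high cells taken from earlier results of these data. The border macrophage gate (Lyve1, Cd163, F13a1 and Cbr2) held 905 and 722 cells in the Hevin libraries and 1179 and 786 in the mCherry libraries. The endothelial gate held 292 and 155 cells in the Hevin libraries and 309 and 185 in the mCherry libraries, with all 6 endothelial markers detected in every library. The microglia and endothelial gates are set by the sums of these markers, so their detection is no independent check.

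Apoe, the lipid carrier, had the same order of classes in every library: Apoe-high cells, border macrophages, microglia, endothelial cells. In Apoe-high cells, which Apoe itself had selected, it stood at 35107 and 36912 CPM with Hevin and at 30589 and 33208 CPM with mCherry. In the border macrophage gate it stood at 15389 and 14378 CPM with Hevin and at 13682 and 13348 CPM with mCherry. The microglia gate held 4862 and 3471 CPM with Hevin and 1549 and 1295 CPM with mCherry. The endothelial gate, whose cells are not a main source of Apoe, held 3770 and 2388 CPM with Hevin and 1016 and 708 CPM with mCherry. Microglia and endothelial cells overlapped in the Hevin libraries and were apart in the mCherry libraries.

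Apoc1, the inhibitor of lipoprotein uptake, was highest in Apoe-high cells and lower in the other gates. Cells in no gate, 2855 and 1365 with Hevin and 984 and 541 with mCherry, lay between. They had 70.7 and 112 CPM with Hevin and 37.3 and 32.8 CPM with mCherry. Apoe-high cells had 139 and 217 CPM with Hevin and 350 and 114 CPM with mCherry. The mCherry values there rest on 72 and 13 UMIs, and the groups overlapped. The microglia gate had 22.7 and 24.3 CPM with Hevin and 9.63 and 6.72 CPM with mCherry. The border macrophage gate had 23.9 and 27.4 CPM with Hevin and 12.4 and 14.8 CPM with mCherry. The values of border macrophages and microglia overlapped with Hevin and were apart with mCherry. The endothelial gate had 14.2 and 9.57 CPM with Hevin and 4.73 and 0.915 CPM with mCherry.

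Apoc4, the least characterised member, was nearly absent from mCherry microglia. The gate held 10 and 6 Apoc4 UMIs in 15066 and 9168 mCherry cells, which is 0.188 and 0.153 CPM, against 3.37 and 2.17 CPM with Hevin. In Apoe-high cells it stood at 28.3 and 35.4 CPM with Hevin and at 58.4 and 26.2 CPM with mCherry, the mCherry values from 12 and 3 UMIs. The border macrophage gate had 5.05 and 3.11 CPM with Hevin and 1.30 and 0.725 CPM with mCherry. In the endothelial gate it stood at 3.24 and 0 CPM with Hevin and at 0 CPM in both mCherry libraries, where 3 UMIs would have been 0.945 and 1.37 CPM.

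Apoc2, the lipase cofactor, was present in border macrophages of both groups. The border macrophage gate had 10.8 and 9.60 CPM with Hevin and 4.64 and 5.56 CPM with mCherry. The microglia gate had 4.25 and 2.52 CPM with Hevin and 0.640 and 0.280 CPM with mCherry. Apoe-high cells had 33.6 and 39.3 CPM with Hevin and 53.5 and 34.9 CPM with mCherry, and these overlap. The endothelial gate had 2.59 and 0 CPM with Hevin and 0 and 0.457 CPM with mCherry. Cells with MHC class II or monocyte markers had 9.06 and 17.2 CPM with Hevin and 8.64 and 2.35 CPM with mCherry, from 12 and 18 UMIs with Hevin and 10 and 2 UMIs with mCherry. Apoc4 stood in them at 6.04 and 1.91 CPM with Hevin and at 0 CPM in both mCherry libraries.

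**Figure D2:**
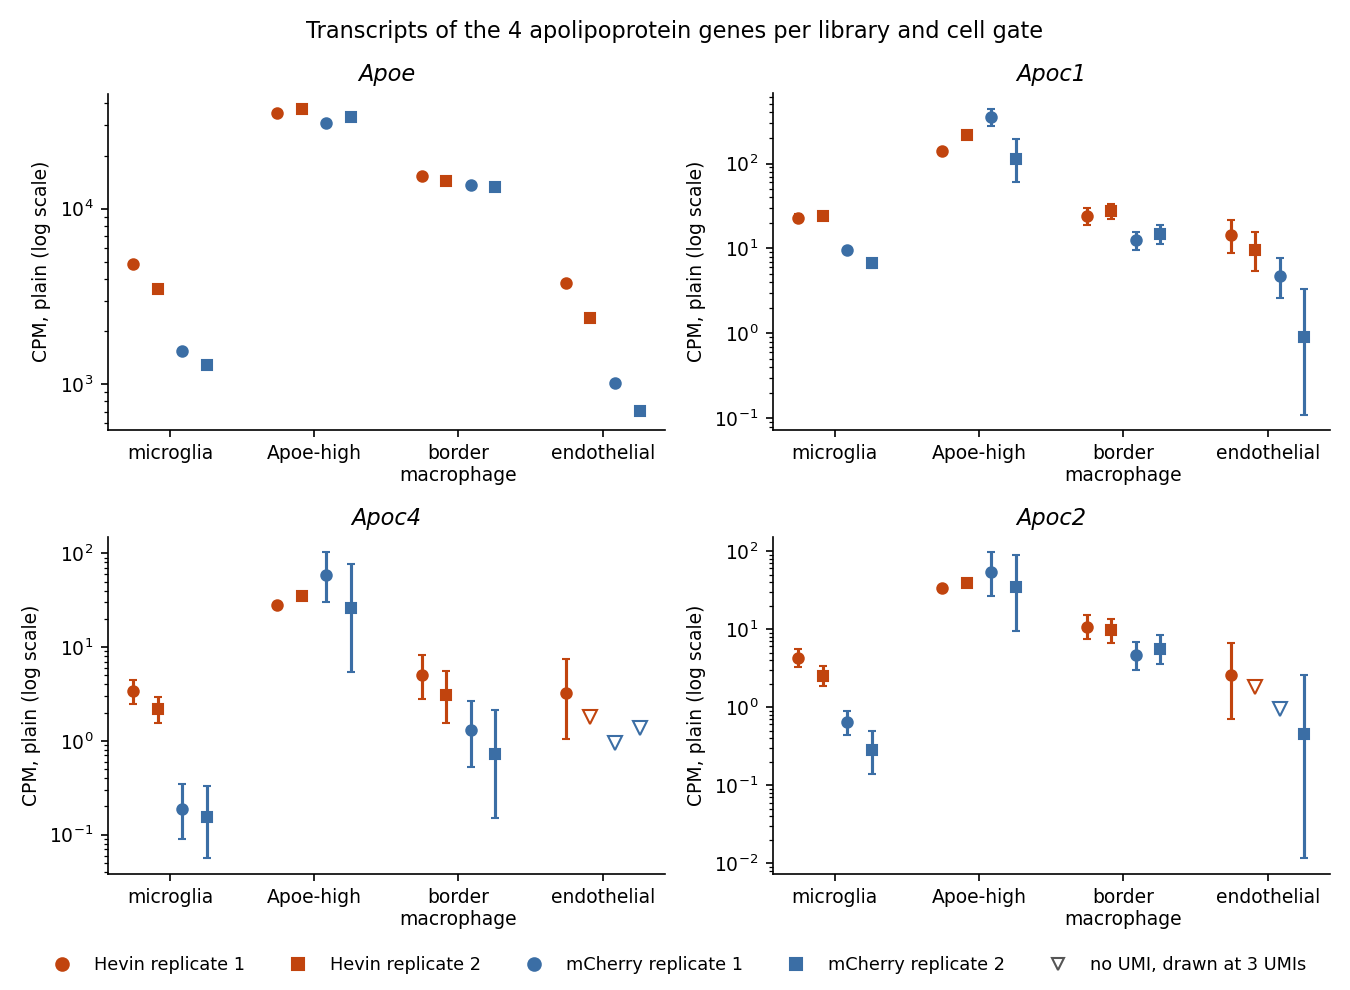
CPM of the 4 genes (log axis) in each library and gate, Hevin in orange and mCherry in blue, with exact Poisson 95% intervals that cover counting error only; open triangles stand for no UMI and are drawn at 3 UMIs. All 4 genes are highest in the Apoe-high gate in every library, and the distance between the groups is wide in microglia and narrow for Apoe in border macrophages.

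The few Apoe-high cells of the mCherry libraries thus carried the Apoc genes too. A gate that reads no apolipoprotein gene (Ms4a7, Axl, Gpr65, Runx3 and Cyp4f18, with the same exclusions) took 7685 and 4547 Hevin cells and 36 and 27 mCherry cells. Its markers had been taken as markers of Apoe-high cells from earlier results of these data. Its overlap with the Apoe-high gate and its Apoc levels are thus no independent check. Of its cells, 96.4% and 97.7% were also Apoe-high in the Hevin libraries, and 75% and 74.1% in the mCherry libraries. Mean levels there were 35626 CPM of Apoe, 176 of Apoc1, 31.6 of Apoc4 and 36.7 of Apoc2 with Hevin, against 27671, 161, 47.1 and 39.5 CPM with mCherry.

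Inside the microglia gate the Hevin libraries lay above the mCherry libraries for all 4 members. How many of all genes did so was not counted. No member passed the threshold over 16995 genes in the edgeR fit. The log2 fold change was 1.60 ± 0.17 for Apoe (SE, edgeR adjusted p = 0.0691), 1.57 ± 0.18 for Apoc1 (0.0789), 4.01 ± 0.40 for Apoc4 (0.0557) and 2.87 ± 0.46 for Apoc2 (0.173). That is 0 of 4 members, where 0.0294% of all genes passed (0.0235% higher and 0.00588% lower) and 921 genes had an unadjusted p below 0.05. DESeq2 passed all 4 members (adjusted p between 8.0e-11 and 4.8e-05). With any 1 library left out, Apoe, Apoc1 and Apoc4 passed in edgeR as well. Without Hevin replicate 1 the log2 fold change of Apoe was 1.34 (edgeR adjusted p = 0.0168), that of Apoc1 1.61 (0.0404) and that of Apoc4 3.68 (0.0452). Without Hevin replicate 2 they were 1.84 (0.00721), 1.53 (0.049) and 4.32 (0.0191). Apoc2 passed without mCherry replicate 1 (3.59, 0.000407) and without mCherry replicate 2 (2.43, 0.0117), and had 2.46 (0.251) without Hevin replicate 1. The same libraries had chosen the members, so these p-values are no independent support.

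The endothelial gate was compared in the same way. Apoe differed there by 1.89 ± 0.24 (edgeR adjusted p = 0.0712) and Apoc1 by 1.97 ± 0.59 (adjusted p = 0.655). Apoc4 and Apoc2 had too few counts to be tested, and 0 of the 2 tested members passed, as did 0 of 10986 genes (0%). Of these genes, 623 had an unadjusted p below 0.05 and 21 passed in DESeq2, among them Apoe (adjusted p = 0.0078). With any 1 library left out, the edgeR log2 fold change of endothelial Apoe was between 1.51 and 2.21. That of Apoc1 was 3.65 without mCherry replicate 1. Tested directly, the Hevin effect on Apoe was 0.30 ± 0.14 smaller on the log2 scale in microglia than in endothelial cells (edgeR adjusted p = 1, with 0% of 15436 genes past the threshold, 581 at an unadjusted p below 0.05 and 0 in DESeq2). For Apoc1 that difference was -0.46 ± 0.52 (adjusted p = 1). In absolute terms, Apoe stood 2745 CPM higher with Hevin than with mCherry in microglia, 2217 in endothelial cells, 1368 in border macrophages, 3060 in astrocytes and 3110 in cells with MHC class II or monocyte markers. Ms4a7, a marker of the Apoe-high cells, stood at 99 and 55.6 CPM in the endothelial gate with Hevin and at 14.8 and 12.8 CPM with mCherry. P2ry12, a marker of microglia, was in that gate at 354 and 260 CPM with Hevin and at 816 and 606 CPM with mCherry. The part of free RNA or doublets in the Apoe of any gate was not tested.

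In the border macrophage gate 0 of 4 members passed, against 0.372% of 12089 genes, of which 944 had an unadjusted p below 0.05 and 54 passed in DESeq2. Apoe differed by 0.18 ± 0.08 (edgeR adjusted p = 0.642), Apoc1 by 0.97 ± 0.19 (0.0909), Apoc4 by 1.96 ± 0.57 (0.331) and Apoc2 by 1.04 ± 0.29 (0.304). Without Hevin replicate 1 Apoe differed by 0.14, Apoc4 by 1.60 and Apoc2 by 0.97 in edgeR. The difference of Apoc1 was then 1.07, and without Hevin replicate 2 it was 0.86.

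The border macrophage and microglia gates, neither of which reads a member gene, were compared within libraries. The microglia gate leaves out cells rich in markers of Apoe-high cells, and the border macrophage gate does not. Apoe was 2.42 ± 0.24 higher on the log2 scale in border macrophages (edgeR adjusted p = 4.5e-06) and Apoc2 2.22 ± 0.38 higher (adjusted p = 0.00036). Apoc1 differed by 0.25 ± 0.15 (adjusted p = 0.187) and Apoc4 by 0.90 ± 0.40 (adjusted p = 0.0744). Without Hevin replicate 1 the differences were 2.74 for Apoe, 2.67 for Apoc2, 0.38 for Apoc1 and 1.25 for Apoc4, and the same 2 genes passed. So 2 of 4 members passed, where 60% of 14018 genes did, 29.4% of them higher in border macrophages. The ratio itself differed between the groups. Border macrophages had 3.16 and 4.14 times the Apoe of microglia in the Hevin libraries, against 8.84 and 10.3 times in the mCherry libraries. For Apoc2 the ratio was 2.53 and 3.80 in the Hevin libraries and 7.25 and 19.8 in the mCherry libraries. The mCherry microglia had 34 and 11 Apoc2 UMIs. The Hevin effect on Apoe was 1.41 ± 0.12 log2 units smaller in border macrophages than in microglia (log2 difference -1.41, edgeR adjusted p = 0.00022), and -1.22 without Hevin replicate 1. It was the 1 member of 4 past the threshold, where 0.361% of 14943 genes were. Apoe had been chosen with these libraries in view, so its p-value is no independent support. The differences for Apoc1 (-0.59 ± 0.25), Apoc4 (-2.0 ± 0.71) and Apoc2 (-1.79 ± 0.52) had edgeR adjusted p-values between 0.411 and 0.836. None of these 3 passed without Hevin replicate 1 (adjusted p between 0.288 and 0.540).

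The number of Apoc transcripts per 1000 Apoe transcripts differed between classes within the same library. Apoe-high cells had 3.96 and 5.89 Apoc1 UMIs per 1000 Apoe UMIs with Hevin, and 11.5 and 3.42 with mCherry. Microglia had 4.67 and 7.0 with Hevin and 6.22 and 5.19 with mCherry. Border macrophages, rich in Apoe, had 1.55 and 1.91 with Hevin and 0.908 and 1.11 with mCherry. In each of the 4 libraries the border macrophage ratio was below that of microglia and of Apoe-high cells, and the counting intervals were apart. Astrocytes had similarly low ratios, at 1.82 and 1.59 with Hevin and 2.20 and 2.21 with mCherry, from 4 to 10 UMIs a library. Endothelial barcodes had 3.78 and 4.01 with Hevin, from 22 and 16 Apoc1 UMIs, and 4.65 and 1.29 with mCherry, from 15 and 2. With Hevin their counting intervals overlapped those of Apoe-high cells and those of microglia in the same library.

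By Apoc4 UMIs per 1000 Apoe UMIs the groups lay apart in microglia and border macrophages and overlapped in Apoe-high cells. How many of all genes lay apart by such a ratio was not counted. Microglia had 0.693 and 0.625 Apoc4 UMIs per 1000 Apoe UMIs with Hevin and 0.121 and 0.118 with mCherry. Apoe-high cells had 0.807 and 0.959 with Hevin and 1.91 and 0.789 with mCherry. For Apoc2, cells with MHC class II or monocyte markers had 1.85 and 4.56 UMIs per 1000 Apoe UMIs with Hevin and 4.88 and 3.48 with mCherry, against 0.958 and 1.06 with Hevin and 1.75 and 1.05 with mCherry in Apoe-high cells. The counting intervals of these classes were apart in Hevin replicate 2 and overlapped in the other 3 libraries. By Apoc4, the microglia of the Hevin libraries lay near the Apoe-high ratio and those of the mCherry libraries far below it. Their Apoc1 ratios overlapped between the groups. The Apoc2 ratio of microglia also separated the groups, at 0.874 and 0.727 with Hevin and 0.413 and 0.216 with mCherry. Border macrophages had Apoc4 ratios of 0.328 and 0.216 with Hevin and 0.0949 and 0.0543 with mCherry, the latter from 7 and 3 UMIs. Their Apoc2 ratios were 0.700 and 0.668 with Hevin and 0.339 and 0.417 with mCherry.

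**Figure D3:**
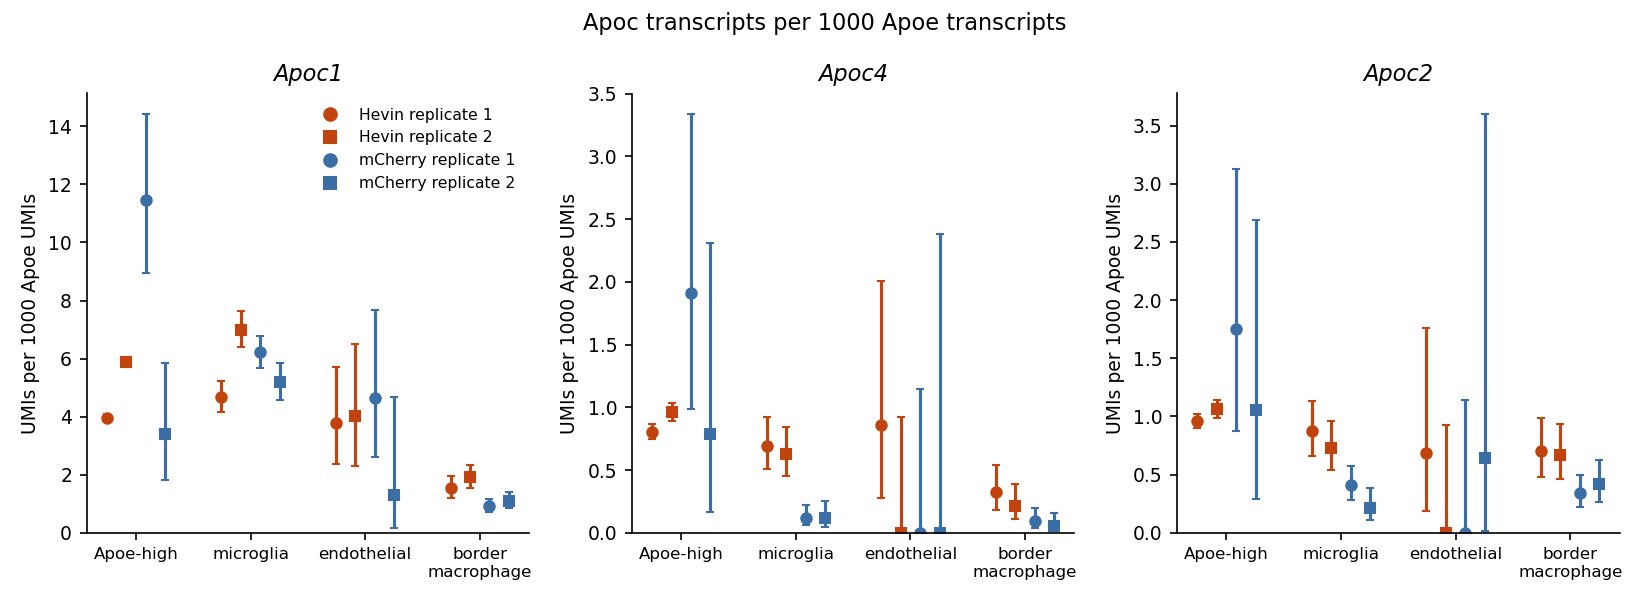
UMIs of Apoc1, Apoc4 and Apoc2 per 1000 Apoe UMIs in 4 gates, Hevin libraries in orange and mCherry libraries in blue, with exact Poisson 95% intervals of the Apoc count (counting error only). Border macrophages have about 0.9 to 1.9 Apoc1 UMIs per 1000 Apoe UMIs, below Apoe-high cells and microglia, and mCherry microglia have Apoc1 but almost no Apoc4.

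Cells outside the border, endothelial, astrocyte and other excluded gates were then ordered by their own Apoe share. In the mCherry libraries Apoc1 climbed with Apoe long before the 1.5% bound. Cells with under 0.25% Apoe had 6.69 and 4.31 CPM of Apoc1, and those with 0.25 to 0.5% had 22.2 and 21.0 CPM. Those with 0.5 to 1% had 71.3 and 60.1 CPM. Apoc1 climbed over these bins with Hevin too. It had 12.3, 20.4 and 29.7 CPM in Hevin replicate 1 and 18.3, 22.3 and 48.2 CPM in Hevin replicate 2. Over the same bins Apoc4 was at 0.194, 0.135 and 0.495 CPM in mCherry replicate 1, from 9, 1 and 1 UMIs, and at 0.170, 0 and 0 CPM in replicate 2, from 6, 0 and 0 UMIs. These counts are too few to tell a climb like that of Apoc1 from a level line. Apoc2 was at 1.20, 1.35 and 2.48 CPM in mCherry replicate 1, from 56, 10 and 5 UMIs, and at 0.368, 0.867 and 3.48 CPM in replicate 2, from 13, 4 and 4 UMIs. P2ry12, a defining microglial gene, was at 4171 and 4378 CPM in the 554 and 268 mCherry cells with 0.5 to 1% Apoe, against 5415 and 5493 CPM in those with under 0.25%. Above 1.5% Apoe the Hevin cells carried all 3 Apoc genes. Between 3% and 4.5% they had 154 and 223 CPM of Apoc1, 28.5 and 34.1 CPM of Apoc4 and 33.9 and 38.3 CPM of Apoc2.

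Within the Apoe-high cells Apoc1 was spread very unevenly. In Hevin replicate 1, 1799 of 9224 cells had an Apoc1 UMI, and 356 cells with 3 or more held 53.7% of all Apoc1 UMIs. In Hevin replicate 2, 1436 of 4987 cells had one, and 465 cells with 3 or more held 72%. Single cells reached 27 and 48 UMIs. The variance of the count per cell was 4.52 and 7.66 times its mean. Genes with a mean within 2-fold of it, 1810 and 1116 in number, had a median of 1.19 and 1.27, and 4 and 1 of them lay above Apoc1. For Apoc4 the variance was 1.95 and 1.99 times the mean, with 31 of 4508 and 35 of 4402 genes of similar mean above it. Apoc2 was near the ordinary, at 1.16 and 1.19 times. In the gate without apolipoprotein genes the variance of Apoc1 was 4.61 and 7.23 times its mean.

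Within this gate, which is bounded by Apoe, the cells with much Apoc1 had nearly the same Apoe as the others. Cells with 3 or more Apoc1 UMIs had 35676 and 37000 CPM of Apoe in the 2 Hevin libraries, against 35078 and 36815 CPM in cells with none. Apoc4 was 1.91 and 1.81 times as high in them, with 48.4 and 55.1 CPM against 25.3 and 30.5 CPM, with Poisson intervals apart in both libraries. Apoc2 was 1.45 and 1.23 times as high, at 46.3 and 44.3 CPM against 32.0 and 35.9 CPM, with intervals apart in replicate 1 and overlapping in replicate 2. Tomm40, next to Apoe on the other side, differed by 1.09 and 1.01 times, Clptm1, next to Apoc2, by 1.07 and 0.935 times, and Ms4a7 by 1.00 and 0.981 times. The cells with 3 or more were also deeper, with a median of 3759 and 4102 UMIs against 2372 and 3383. The microglia gate does not read Apoe but leaves out cells rich in markers of Apoe-high cells. In it, cells with 3 or more Apoc1 UMIs had 1.37 and 2.60 times the Apoe of cells with none in the Hevin libraries. In the mCherry libraries they had 3.12 and 4.24 times. Those were 8 and 11 cells of the Hevin libraries and 25 and 9 cells of the mCherry libraries. Cells of a library are not replicates, so these are descriptions of single libraries.

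**Figure D4:**
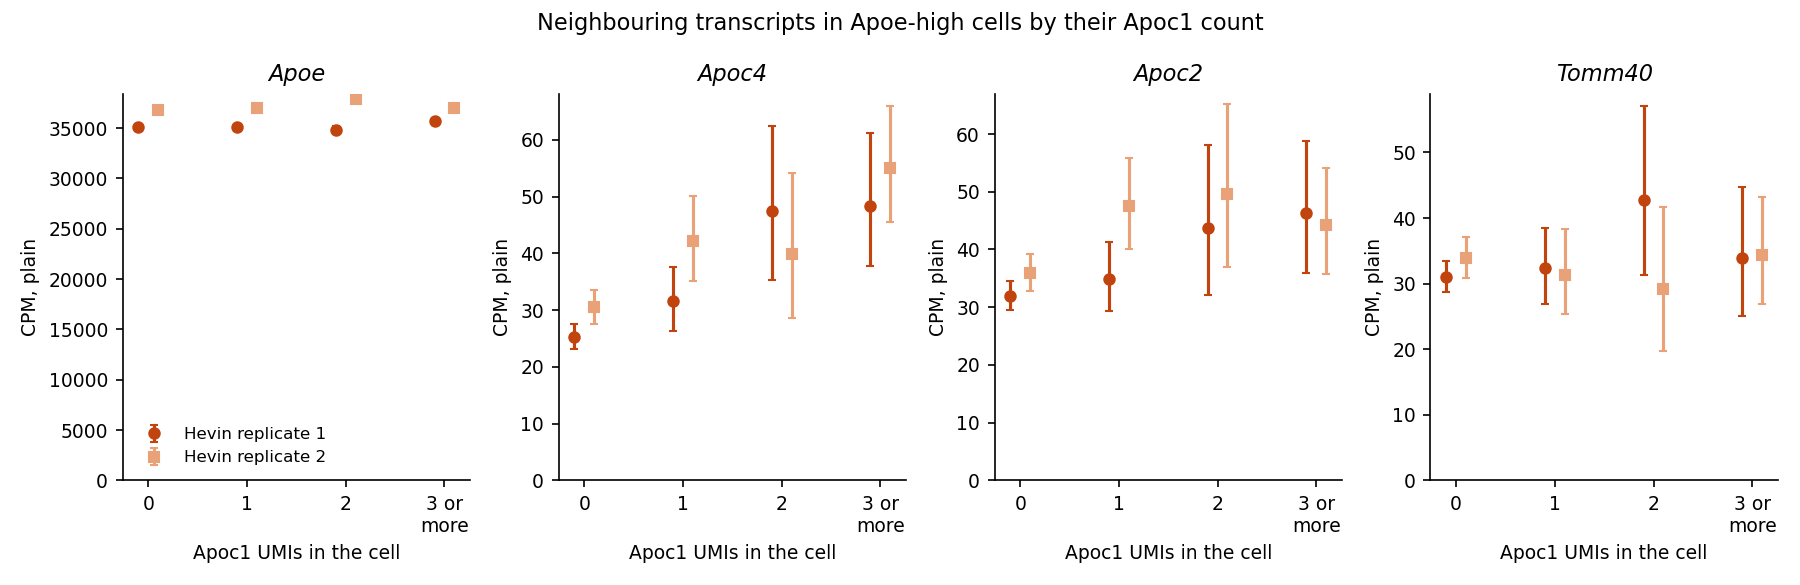
CPM of Apoe, Apoc4, Apoc2 and the neighbour Tomm40 in Apoe-high cells of the 2 Hevin libraries, grouped by the number of Apoc1 UMIs in the cell, with exact Poisson 95% intervals (counting error only). Apoc4 climbs from 25.3 and 30.5 CPM in cells with no Apoc1 UMI to 48.4 and 55.1 CPM in cells with 3 or more, while Apoe in these cells is 1.02 and 1.01 times that of cells with none.

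Subsets of the Apoe-high cells differed in the members. Cells with 3 or more UMIs of Spp1 and Gpnmb, genes of phagocytic and disease-associated microglia, numbered 134 and 75 in the Hevin libraries. Their Apoc4 reached 124 and 106 CPM, against 25.9 and 33.6 CPM in cells with none of these UMIs, which is 4.77 and 3.15 times. Their Apoc2 was 2.52 and 1.89 times as high, at 82.5 and 72.3 CPM, whereas Apoc1 was 1.25 and 0.775 times and Apoe 0.969 and 0.990 times. Cells with 3 or more UMIs of the cell cycle genes Mki67, Top2a and Cenpf, 46 and 43 in number, had less Apoe, at 23142 and 23911 CPM against 35336 and 37123 CPM. Their Apoc4 came from 2 and 1 UMIs, at 8.17 and 4.43 CPM against 27.9 and 35.4 CPM. Their Apoc1 was 0.469 and 0.710 times that of cells with none and their Apoc2 0.981 and 0.448 times, with Apoc2 from 8 and 4 UMIs. Cells with 3 or more UMIs of the interferon-induced genes Ifit3, Isg15 and Cxcl10 numbered 170 and 122 and had 0.922 and 0.921 times the Apoe of cells with none. Their Apoc1 was 0.859 and 0.764 times, their Apoc4 0.620 and 0.766 times and their Apoc2 1.04 and 0.793 times that of cells with none.

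The share of cells with an Apoc1 UMI was 19.5% and 28.8% of Apoe-high cells in the Hevin libraries and 35.4% and 20% in the mCherry libraries. Thinned to 1000 UMIs per cell, which kept 9093 of the 9224 cells of Hevin replicate 1 and all Apoe-high cells of the other libraries, it was 9.59% and 13% with Hevin and 20.8% and 8% with mCherry. In the endothelial gate, at medians of 3738.5 and 5924 UMIs with Hevin and 5832 and 6305 with mCherry, the thinned share was 1.03% and 0.645% with Hevin and 0.324% and 0% with mCherry. Apoe-high cells had medians of 2515.5 and 3487 UMIs with Hevin and 3504.5 and 4059 with mCherry, so their depth was below that of endothelial barcodes. In microglia the thinned Apoc1 share was 1.89% and 2.05% with Hevin and 0.982% and 0.654% with mCherry.

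The nearest genes on either side of the cluster did not pass the threshold over all cells. Tomm40, a subunit of the mitochondrial import channel, differed by -0.16 ± 0.07 over all kept cells (edgeR adjusted p = 0.232), with 35.8 and 37.7 TMM-scaled CPM in the Hevin libraries and 41.9 and 39.9 in the mCherry libraries. Clptm1, on the other side, differed by -0.21 ± 0.09 (adjusted p = 0.221). Farther out, Bcl3, an NF-kappa-B cofactor, rose by 1.15 ± 0.27 (adjusted p = 0.0405) and Relb, an NF-kappa-B subunit, by 0.63 ± 0.09 (adjusted p = 0.0067), while the adhesion molecule Nectin2 fell by 0.66 ± 0.11 (log2 fold change -0.66, adjusted p = 0.0135). Bcam (-0.49), Cblc (0.15) and Clasrp (-0.04) did not pass. So 2 of 8 neighbours rose and 1 fell, where 6.85% and 4.3% of all genes did. In the microglia gate none of the 8 neighbours passed, with log2 fold changes between -0.37 and 0.57.

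**Figure D5:**
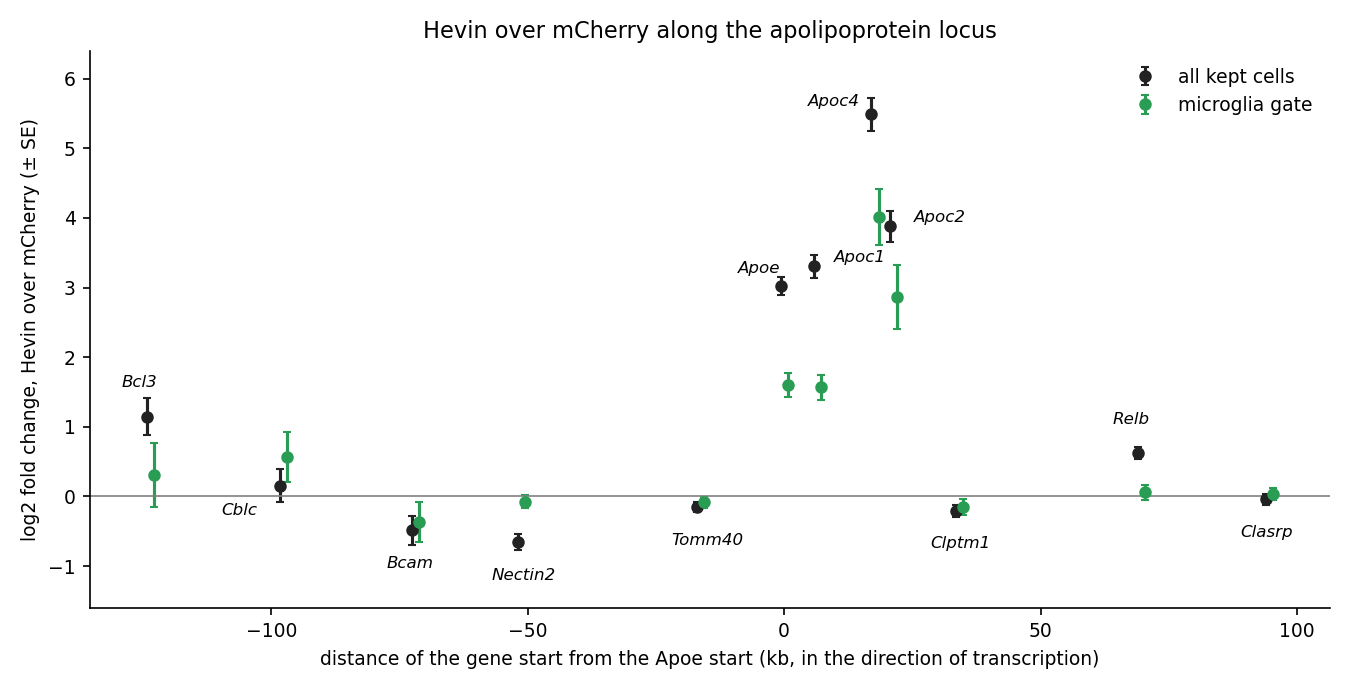
Log2 fold change, Hevin over mCherry (± SE), of the 4 members and 8 neighbours against the distance of their starts from the Apoe start in kb, for all kept cells (black) and the microglia gate (green). The 4 members stand between 3.02 and 5.49 over all cells, and the nearest genes on either side, Tomm40 and Clptm1, lie close to 0.

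Of the other genes of lipoprotein biology, some moved over all kept cells, in both directions. Among receptors and uptake genes 4 of 18 tested rose and 1 fell, with a median log2 fold change of -0.04 against 0.00 over all genes. The scavenger receptor Msr1 rose to 65.2 and 58.2 TMM-scaled CPM with Hevin, against 17.8 and 18.4 with mCherry (1.77 ± 0.08, edgeR adjusted p = 8.3e-05). The sorting receptor Sorl1 rose by 1.35 and the scavenger receptor Stab1 by 0.65. Among efflux and liver X receptor genes 7 of 18 rose and 2 fell (median 0.08). They included the sterol hydroxylase Cyp27a1 (1.12), the lipid droplet protein Plin2 (0.84), the cholesterol exporter Abca1 (0.83) and the esterase Nceh1 (0.72). Among lipases and transfer genes 2 of 15 fell and none rose in this edgeR fit (median -0.20), namely the monoacylglycerol lipase Mgll (-0.94) and the lipoprotein lipase Lpl (-0.52). Lpl, the enzyme that Apoc2 serves, stood at 35.5 and 38.3 TMM-scaled CPM with Hevin and at 52.9 and 52.6 with mCherry. None of 8 tested other apolipoproteins passed (median -0.28), of 14 in the list. Inside the microglia gate edgeR called no gene of these lists or of the neighbours, with 7 at an unadjusted p below 0.05. Msr1 differed there by 1.33 ± 0.21 (adjusted p = 0.158).

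By pattern over 24 sums of gate and library, in log2(CPM + 1) and among the 9918 genes that averaged 10 CPM or more, the genes most like Apoe were Apoc1 (Pearson r = 0.88), Cd63 (0.86), Slc30a5 (0.84), Sat1 (0.83) and Ripor2 (0.83). Those most like Apoc1 were Sat1 (0.89), Apoe (0.88) and Hebp1 (0.81). For Apoc4 they were Rtcb (0.93), Cxcl16 (0.89) and Gpr65 (0.89), and for Apoc2 Apobec1 (0.92), Cd72 (0.91) and Cxcl16 (0.91). Gpr65 had helped to define the gates. Apoe itself defines the Apoe-high gate, whose sums are among the 24, so its correlations are shaped by that selection. The sums of a library share its cells and depth, so these values are descriptions. Apoc4 and Apoc2 were closer to each other (0.88) than either was to Apoe (0.70 and 0.59). Apoc4 was nearly as close to Apoc1 (0.86), while Apoc2 had 0.66 with Apoc1.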

How the data were processed

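Raw UMI counts per gene and barcode are the unit the authors deposited, with a feature and a barcode list per library. Per the submitters' processing notes, reads were placed on mm10. Which aligner, counter and cell calling were used is not given in the sources used here. Barcodes with at least 500 UMIs, 300 genes and at most 10% mitochondrial UMIs were kept (61371 of 61686). No doublet caller was run. An alternative left out the deepest 5% of cells in each library. Gates used marker sums per 10000 UMIs with bounds set after the distributions had been seen. Counts were summed per library and gate (at least 20 cells) and tested with edgeR 4.0.16 (TMM, filterByExpr, quasi-likelihood, Benjamini-Hochberg adjustment over all genes, limma 3.58.1, R 4.3.3). Fits between gates had the library as a block. Self-tests on simulated counts were run first. Alternatives were unscaled library totals, DESeq2 1.42.0, no filter on low counts, cells with at least 1500 UMIs and at most 5% mitochondrial, stricter gates, single libraries left out and a replicate block. CPM of members are plain, and those of list genes are TMM-scaled. The comparison with endothelial cells, the split of cells by Apoc1 and the subsets by Spp1, cell cycle and interferon genes were added later. The members, the gene lists and the markers of Apoe-high cells were chosen with earlier results of these data known. From each list the text names up to 4 genes past the threshold with the largest change and a mean of at least 10 CPM, and all neighbours. 1 gene that this rule names is not reported here. Replicates differed by more than counting noise (chi-square per gene 25.4 and 20.6). Intervals and limits for zero counts (3 counts) cover counting error only, at 95% confidence.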

Additional observations from a re-analysis of the deposited data

Results flagged for a closer look

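The response of Apoe to Hevin differed between cell classes by a direct test. Its log2 fold change, Hevin over mCherry, was 1.41 lower in the border macrophage gate than in the microglia gate (-1.41, edgeR adjusted p = 0.00022). The same libraries had chosen Apoe, so this p-value is no independent support. The microglia gate, unlike the border macrophage gate, left out cells rich in markers of Apoe-high cells. Apoe stood 1.1-fold higher with Hevin in border macrophages and 2.93-fold higher in microglia. In absolute terms the difference was 1368 CPM in border macrophages and 2745 CPM in microglia, beside 2217 CPM in the endothelial gate, and the part of free RNA in these values was not tested. All 10 alternatives kept the direction and stayed past the threshold, between -1.58 and -1.22.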

How the results depend on the processing

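Every member kept its direction in the alternatives counted, where 192 values stayed on their side of the threshold and 53 newly passed it. Apoc4 and Apoc2 in the difference between microglia and endothelial cells were not counted. Nor were alternatives that gave a member no adjusted p. In microglia the members missed the threshold in the report but passed in 8 of 11 alternatives for Apoe, 9 for Apoc1, 9 for Apoc4 and 5 for Apoc2. Counts of genes past the threshold moved more. In microglia the 5 genes became 14 with library totals, 129 with DESeq2, 299 without a filter, 17 with stricter cells and 22 to 119 with 1 library left out. In border macrophages the 45 became 264 without a filter, 19 with stricter gates and 11 to 311 with 1 library left out. In endothelial cells the 0 became 21 with DESeq2, 229 without a filter, 4 with stricter cells, 25 without the deepest cells and 26 to 109 with 1 library left out. For border macrophages minus microglia in the response to Hevin the 54 became 156 without a filter, 30 without the deepest cells, 35 with stricter gates and 37 to 201 with 1 library left out. For microglia minus endothelial cells the 0 became 82 without a filter, 17 without the deepest cells and 0 to 4 with 1 library left out. The cause of these shifts was not tested. With 1 library left out, the lone library is assumed to vary like the others. Deviations of same-numbered libraries correlated at 0.357 over 2 pairs, and no label says that numbers pair libraries. A replicate block raised the counts to 4533 over all cells (2131 without it), 493 in microglia, 430 in border macrophages and 172 in endothelial cells. Library totals moved the median of all genes over all cells by -0.11 and the split to 935 higher and 1466 lower, from 1309 and 822. Between border macrophages and microglia they moved the median to 0.12 and the split to 5274 and 3216, from 4117 and 4289. Fewer than 20 Apoc4 or Apoc2 UMIs in mCherry Apoe-high and in endothelial cells limit those levels.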
